A study of Rattus norvegicus with 18 samples.

Results

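The passage of time in sham-operated cortex was read from 6 of the 18 arrays of a rat study of erythropoietin (EPO) in cerebral ischemia: 3 arrays of sham cortex at 6 h against 3 of sham cortex at 2 h. The arrays were chosen by their group and time labels alone. Both groups hold males, strain Crl:CD(SD)BR, wild type as far as the labels go, with brain cortex as the tissue and no drug given. The labels count the hours from middle cerebral artery occlusion in every group, the sham groups included. They state neither the time of day, nor the anaesthetic, nor what the sham operation opened, nor that each array is a separate animal, so the p-values measure the spread between these arrays, which may in part be technical. The other 12 arrays are from rats with the artery occluded and given EPO or saline, 3 arrays at 6 h and 3 at 2 h of each. They entered the estimate of the spread and served to show where the sham change differed. RNA was labelled with Cy3 and hybridized to 1-colour rat 60-mer arrays. Levels below are log2 processed signal minus the 75th percentile of the array, and a change is the log2 difference of group means, 6 h minus 2 h, ± the standard error from limma.

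A sham operation exposes the animal to anaesthesia, handling and a wound without loss of blood flow, so cortex sampled at a later hour may differ in recovery, in stress hormone exposure and, depending on when the operations were done, in clock time. Glucocorticoids act through their nuclear receptor to induce genes such as Sgk1 and Fkbp5, and the induction fades with the hormone. The circadian clock of most cells is a loop in which CLOCK and BMAL1 drive the Per and Cry genes, whose proteins repress that drive, with Nr1d1 and the output gene Dbp following the same rhythm. Immediate-early genes such as Fos, Egr1 and Klf2 respond to neuronal firing, growth factors or blood flow within minutes and decay soon after.

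The 6 arrays were not of equal quality. The share of the 41012 probes well above background was 64.7%, 76.9% and 75.6% on sham 6 h arrays 1 to 3, against 80.3%, 68.6% and 71.1% on sham 2 h arrays 1 to 3. The slope of log signal on log spike-in amount exceeded 0.9 on sham 6 h array 1 alone (0.928), against 0.788 to 0.854 on the other 5 sham arrays. Over all probes tested, the first principal component of the 6 sham arrays carried 78.6% of the variance and set sham 6 h array 1 at one end and sham 2 h array 1 at the other. Sham 6 h array 1 was also read on scan day 2, and slide 4 was the only slide that held both sham groups, with 1 array of each. All 11 tested markers of neurons and all 11 of cortical projection neurons were well above background on all 6 arrays, which fits the labelled tissue, and so were 11 of 12 of striatal neurons.

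**Figure D1:**
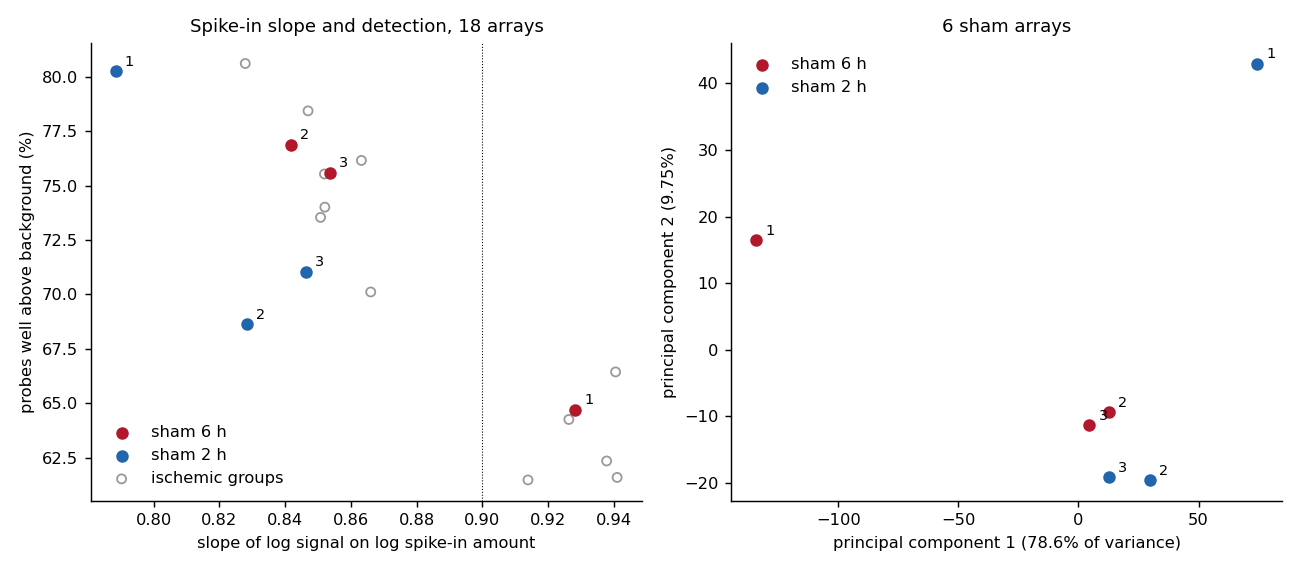
Left, the spike-in slope of each of the 18 arrays (x axis) against the percentage of probes well above background (y axis), with sham 6 h in red, sham 2 h in blue and the ischemic groups as open circles. The numbers are array numbers within a group and the dotted line marks a slope of 0.9. Right, the first 2 principal components of the 6 sham arrays, in which arrays 1 of the 2 groups lie at opposite ends of the first component while the other 4 arrays lie close together.

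Of 28634 probes tested, 135 changed between sham 6 h and sham 2 h at a Benjamini-Hochberg adjusted p under 0.05 (0.471% of probes), 88 of them higher at 6 h and 47 lower. At an unadjusted p under 0.05 there were 2598 probes. Higher probes made up 65.2% of the calls, and 53.1% of the 96 made after normexp background correction. Of these 135 probes, 92 carry a gene symbol. With each gene read from its brightest probe alone, 83 named genes of 13168 were called (0.63%), 55 higher (0.418%) and 28 lower (0.213%). The changes were mostly small: the median size was 0.61 on the log2 scale, the smallest 0.30, and 20 probes moved at least 2-fold. In each of the 135 probes the 3 arrays at 6 h lay wholly on one side of the 3 at 2 h, which was also true of 19.5% of all probes. The plot of every tested probe shows a broad excess of small negative changes among dim probes. Probes with a mean level below -3 had a median change of -0.41, and -0.17 with sham 6 h array 1 left out, whereas the medians lay between -0.03 and 0.01 for probes with levels of -2 or more. Only 9 of the 135 calls came from probes below -3, 8 higher and 1 lower.

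**Figure D2:**
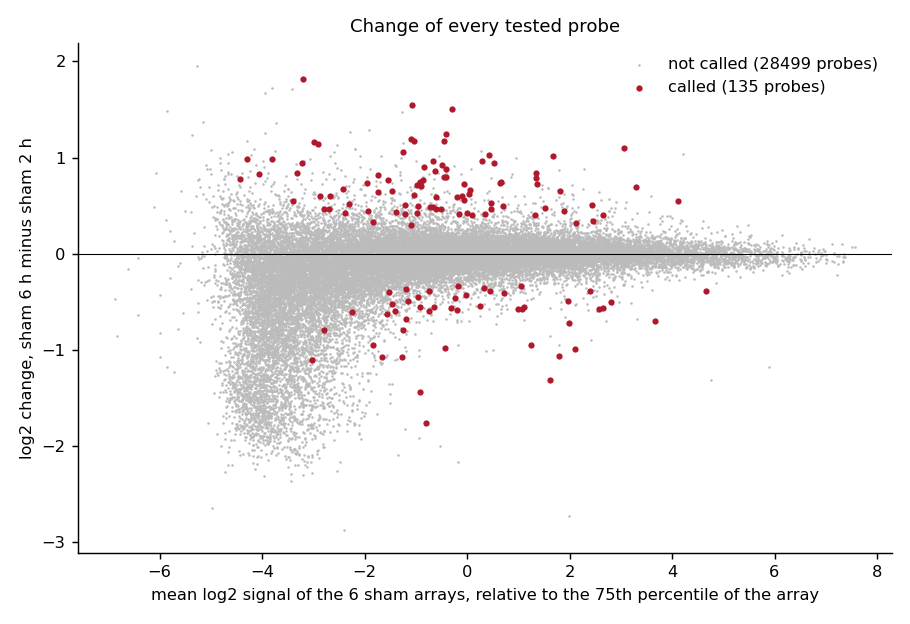
Log2 change of each tested probe, sham 6 h minus sham 2 h (y axis), against its mean log2 level over the 6 sham arrays (x axis). The 135 probes called are red and the others grey. The calls lie on both sides of 0 and mostly above a level of -2, while the grey cloud at the dim end leans below 0.

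The count depended on which arrays and blocks entered the fit. With the 6 sham arrays alone in the fit, 0 probes passed in limma (2344 at an unadjusted p under 0.05), and 0 passed without the 6 arrays of the series whose spike-in slope exceeded 0.9 (2062 unadjusted). With slide as a fixed block 1 probe passed, and leaving out 1 sham array at a time gave 40 to 59. When both sham arrays of slide 4 were left out, 17 probes passed, and all 17 had the same sign between the 2 arrays of slide 4, compared with 58.9% of all probes.

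Among the rises, the largest was of Slpi, a secreted inhibitor of leukocyte proteases. Its level was -2.03, -2.45 and -2.42 on the sham 6 h arrays, against -4.23, -4.14 and -3.98 on the sham 2 h arrays, a change of 1.82 ± 0.34 (adjusted p = 0.0371). All 3 arrays at 6 h lay above all 3 at 2 h, but a second and dimmer Slpi probe gave -0.56 and did not pass. Tnfrsf11b, which encodes osteoprotegerin, a soluble decoy receptor, had levels of -0.13, -0.43 and -0.36 at 6 h, against -1.81, -2.13 and -1.60 at 2 h. It rose by 1.54 ± 0.15 (adjusted p = 0.00133) and its groups were far apart. The smallest adjusted p of all probes, 0.000585, belonged to Hhex, a homeobox transcription factor. Hhex stood at -0.60, -0.77 and -0.81 at 6 h, against -1.78, -1.90 and -1.66 at 2 h, a rise of 1.06 ± 0.09. Clk1, a kinase that phosphorylates splicing factors, rose by 1.09 ± 0.13, with 3.73, 3.67 and 3.42 at 6 h against 2.55, 2.51 and 2.47 at 2 h. A second and dimmer Clk1 probe gave 0.84 and did not pass (adjusted p = 0.0558). The related Clk2, named after its value was seen, rose by 0.52.

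Sox9, a transcription factor of astrocytes and glial progenitors, had 2.24, 2.19 and 2.10 at 6 h, against 1.37, 0.97 and 1.15 at 2 h. It rose by 1.01 ± 0.11 and a second probe rose by 0.95, while its other 2 and dimmer probes gave -0.74 and 0.01 and did not pass. Lonrf3, a RING-finger protein, rose by 1.02 ± 0.10, and Rpe65, the retinoid isomerase of the visual cycle, by 0.96 ± 0.15. The remaining large rises were of Tasl, an adaptor of endosomal Toll-like receptor signalling, of Hpd, an enzyme of tyrosine breakdown, of Lrg1, a secreted leucine-rich glycoprotein, of Pla1a, a phospholipase that acts on phosphatidylserine, and of Ptprb, a receptor phosphatase of endothelium. They lay between 0.86 and 0.98, and a second and dimmer Ptprb probe gave 0.46 and did not pass. Tasl was well above background on 1 of 3 arrays at 2 h and 3 of 3 at 6 h. Fgr, a Src family kinase of myeloid cells, was chosen for its bound. It was well above background on all 3 arrays at 6 h and on 0 of 3 at 2 h, and was at least 1.66-fold higher at 6 h. The bound takes, for each 2 h array, the larger of its own signal and the dimmest signal that still counted as above background. In whole tissue, more cells of a type and more RNA per cell cannot be told apart.

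The falls included Sgk1, a kinase induced by glucocorticoids and serum. Sgk1 had levels of 1.57, 1.76 and 1.48 at 6 h, against 2.63, 2.48 and 2.67 at 2 h, a fall of 0.99 ± 0.12 (change -0.99, adjusted p = 0.00341). The groups did not overlap and the spread within each was small. Klf2, a flow-responsive transcription factor of endothelium, had -2.29, -2.07 and -2.24 at 6 h, against -0.90, -1.21 and -1.26 at 2 h, and fell by 1.08 (± 0.16). Apold1, an endothelial early-response gene, fell by the same amount with a wider spread, having -1.88, -1.45 and -2.12 at 6 h against -0.54, -0.82 and -0.85 at 2 h. Gadd45g, a growth-arrest gene, had 1.32, 1.32 and 1.11 at 6 h, against 2.42, 2.14 and 2.39 at 2 h, and fell by 1.07. Nfkbia, the inhibitor that holds NF-kB in the cytoplasm, had 0.50, 1.08 and 0.74 at 6 h, against 1.85, 1.55 and 1.78 at 2 h, and fell by 0.95 (± 0.17). Its second probe gave -0.66 and did not pass. Hes1, the repressor that Notch signalling induces, fell by 0.95 as well. Errfi1, a feedback inhibitor of the EGF receptor, fell by 0.70 and Nab2, a corepressor of the EGR factors, by 0.68.

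The largest fall of a named gene, -1.44 ± 0.27, was on a probe matched through a synonym to Zfp36l3, a zinc-finger gene known from rodent placenta. The deepest fall of all, -1.76, was on a probe that carries no gene symbol. Tcim, Pwwp2b and Qrfpr, the last a receptor for a hypothalamic peptide, completed the 12 largest falls at -0.80, -0.79 and -0.63. Ier5l, named after its value was seen, changed by -1.31 ± 0.19 (adjusted p = 0.0081) on a dimmer probe. It is not counted among the genes, as its brightest probe was not called. Over the 83 genes, sham 6 h array 1 was the 6 h array farthest from the 2 h group in 36 genes (43.4%), array 2 in 27 and array 3 in 20. With sham 6 h array 1 left out, 59 probes passed, 52 of them among the 135. Of the 24 genes with the largest rises and falls, 11 then still passed, namely Hhex, Tnfrsf11b, Lonrf3, Sox9, Clk1, Sgk1, Klf2, Gadd45g, Errfi1, Tcim and Pwwp2b, with adjusted p between 0.00556 and 0.0499. The other 13 lost the call, with adjusted p between 0.0551 for Rpe65 and 0.151 for Nab2: Slpi, Tasl, Rpe65, Hpd, Lrg1, Pla1a, Ptprb, Zfp36l3, Apold1, Hes1, Nfkbia, Nab2 and Qrfpr.

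**Figure D3:**
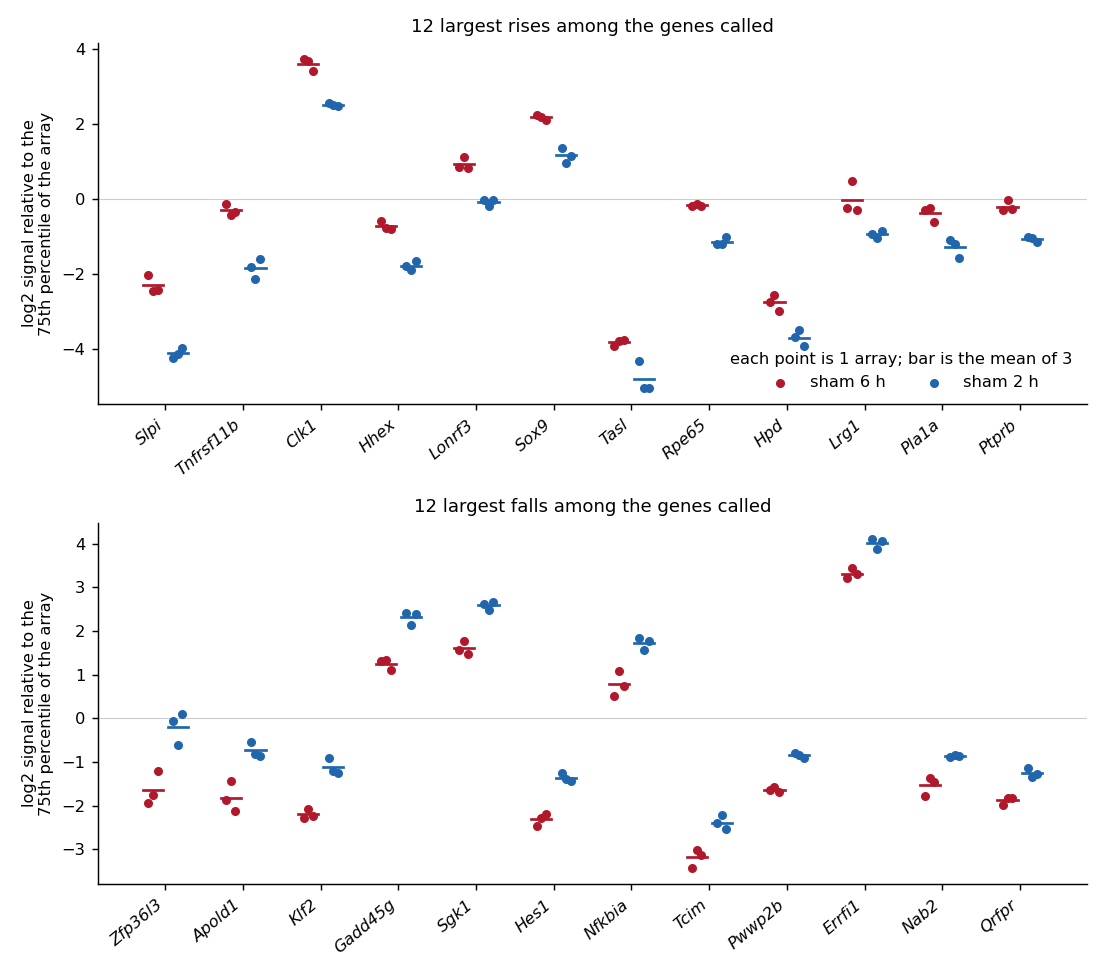
Log2 level with the array's 75th percentile at 0 (y axis) of the genes with the 12 largest rises (top) and 12 largest falls (bottom) among the genes called. Each point is 1 array, red for sham 6 h and blue for sham 2 h, and bars are means of 3. Only genes whose red and blue points do not overlap were chosen, from Slpi, whose means lie 1.82 apart, to Qrfpr, whose means lie 0.63 apart.

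Of the 19 tested core clock genes, 1 rose and 0 fell (5.26%, against 0.63% of all genes). The median change was -0.08 against -0.04 over all genes, and was positive, up to 0.10, in 3 of 27 alternative settings. The gene that rose was Per2, a repressor arm of the loop. It had 1.75, 1.81 and 1.64 at 6 h, against 1.00, 0.86 and 0.99 at 2 h, a rise of 0.79 ± 0.13 (adjusted p = 0.0157). Every 6 h array lay above every 2 h array, by 0.65 between the 2 arrays of slide 4. Without sham 6 h array 1 the call was lost (adjusted p = 0.066). Cry1, which encodes a partner of PER2, changed by 0.49 ± 0.11 and missed the threshold (adjusted p = 0.0725), with 0.90, 0.48 and 0.66 at 6 h against 0.19, 0.04 and 0.36 at 2 h. Nr1d1, the repressor of Bmal1, stood lower at 6 h without passing (-0.41 ± 0.10, adjusted p = 0.126), and so did Bmal1 itself (-0.22 ± 0.09). Per1 gave -0.22 and Dbp 0.02, with overlapping groups. None of the 12 tested clock output genes passed (6 h against 2 h in limma, 3 of 12 at an unadjusted p under 0.05). Among them Nfil3, a repressor that competes with DBP for the D-box, gave -0.52 ± 0.14 (adjusted p = 0.138).

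Because Per2 was the one clock gene called, the bases before its start are shown, with those of the 3 called genes that held an E-box, the element that CLOCK and BMAL1 bind. Sequences are from RefSeq (build GRCr8), where 66 of the 83 called genes had an entry, and capitals mark the motif. Bases that lie within the annotated gene were left out. The D-box was searched as TTATGTAA and the E-box as CACGTG, on both strands, within 250 bases before each start. The Per2 window is chr9:99497070-99497243 on the minus strand, Gadd45g chr17:13530352-13530601 on the minus strand, Lonrf3 chrX:120430781-120430974 on the plus strand and Klf6 chr17:69458479-69458728 on the minus strand.
Per2: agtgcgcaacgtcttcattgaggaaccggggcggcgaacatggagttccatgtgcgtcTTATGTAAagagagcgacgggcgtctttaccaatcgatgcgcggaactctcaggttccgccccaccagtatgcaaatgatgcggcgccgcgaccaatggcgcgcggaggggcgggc
Gadd45g: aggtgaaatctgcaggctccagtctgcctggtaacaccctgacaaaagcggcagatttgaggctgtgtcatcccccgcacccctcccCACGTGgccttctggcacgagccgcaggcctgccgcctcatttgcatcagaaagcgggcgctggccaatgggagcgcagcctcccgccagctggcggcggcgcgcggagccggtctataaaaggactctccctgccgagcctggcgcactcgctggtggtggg
Lonrf3: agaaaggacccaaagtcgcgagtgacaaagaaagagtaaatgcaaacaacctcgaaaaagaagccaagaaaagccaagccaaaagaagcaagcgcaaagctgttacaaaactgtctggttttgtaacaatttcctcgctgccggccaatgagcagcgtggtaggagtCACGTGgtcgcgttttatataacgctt
Klf6: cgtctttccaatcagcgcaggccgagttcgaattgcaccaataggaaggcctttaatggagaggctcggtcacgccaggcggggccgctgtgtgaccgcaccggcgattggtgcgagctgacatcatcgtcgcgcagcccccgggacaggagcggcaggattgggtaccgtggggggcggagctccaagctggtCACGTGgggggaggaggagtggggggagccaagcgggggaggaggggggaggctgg
The D-box began 192 bases before the listed start of Per2, the only called gene that held one (1.52% of 66, against 0.828% of 33469 promoters). The E-box was held by 3 of the 66 called genes (4.55%) and by 5.59% of all promoters. For called genes only the first listed promoter of each was read, while the share of promoters counts every one listed, tested or not. No called gene held the cAMP response element TGACGTCA, which 1.59% of promoters hold, or the palindromic glucocorticoid response element, which 0.012% hold. The kappaB site was held by 2 of the 66, Clk2 and Nfkbia (3.03%, against 1.3% of promoters). A match describes letters in this window, not a bound site.

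The glucocorticoid response list had 3 genes lower and 1 higher at 6 h among 36 tested (11.1%, against 0.63% of all genes). Its median change was -0.12, against -0.04 over all genes. The median was positive, up to 0.03, in 2 of 27 alternative settings: spike-in slope as a covariate, and both arrays numbered 1 left out. In 15 of the 36 the groups did not overlap, against 20.2% of all genes. The 3 that fell were Sgk1, Errfi1 and Nfkbia, described above. The gene that rose was Ccn2, a matricellular growth factor, by 0.73 ± 0.13, with 1.89, 1.62 and 1.70 at 6 h against 0.84, 1.15 and 1.04 at 2 h. Other hormone targets did not share a direction: Tiparp gave -0.55 (adjusted p = 0.0539) and Dusp1, a MAP kinase phosphatase, -0.69 (adjusted p = 0.0554), whereas Fkbp5, which encodes a chaperone of the receptor, gave 0.54 ± 0.14 (adjusted p = 0.16), Tsc22d3 0.11 and Per1 -0.22. Fkbp5 had 3.20, 3.46 and 3.46 at 6 h, against 2.54, 3.01 and 2.95 at 2 h, so its arrays did not overlap although it did not pass. The receptor gene itself, Nr3c1, changed by 0.08.

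Among 31 immediate-early genes, Klf6, a zinc-finger transcription factor, and Ccn2 rose and Klf2 fell (9.68%, against 0.63% of all genes called). Without sham 6 h array 1 both rises lost the call (adjusted p = 0.103 for Klf6 and 0.114 for Ccn2). The list's median change was -0.17, against -0.04 over all genes, and 22 of its 31 members had a lower mean at 6 h. That median rested on sham 2 h array 1. It was positive, up to 0.07, when that array was left out alone or together with sham 6 h array 1. Klf6 had 3.73, 3.54 and 3.64 at 6 h, against 2.78, 3.13 and 2.90 at 2 h, a rise of 0.70 ± 0.12 that its second probe shared (0.79). The genes best known from neuronal firing differed little: Fos changed by -0.40 ± 0.31, Egr1 by 0.20 ± 0.14, Arc by 0.07 ± 0.24 and Nr4a1 by -0.15 ± 0.24, with overlapping groups in each. In Fos the spread came from 1 array, as the 2 h arrays stood at 0.66, -0.35 and -0.83, against -0.84, -0.45 and -0.43 at 6 h. Of 28 activity-regulated plasticity genes, Per2 rose and Gadd45g fell (7.14%), and Bdnf gave 0.41 ± 0.20 (adjusted p = 0.586). Of 29 genes of synaptic transmission and ion channels 1 rose (3.45%), Kcnv1, a potassium channel subunit that is silent on its own. It had 2.80, 2.64 and 2.64 at 6 h, against 2.14, 2.17 and 2.26 at 2 h (0.50 ± 0.06, adjusted p = 0.00506).

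**Figure D4:**
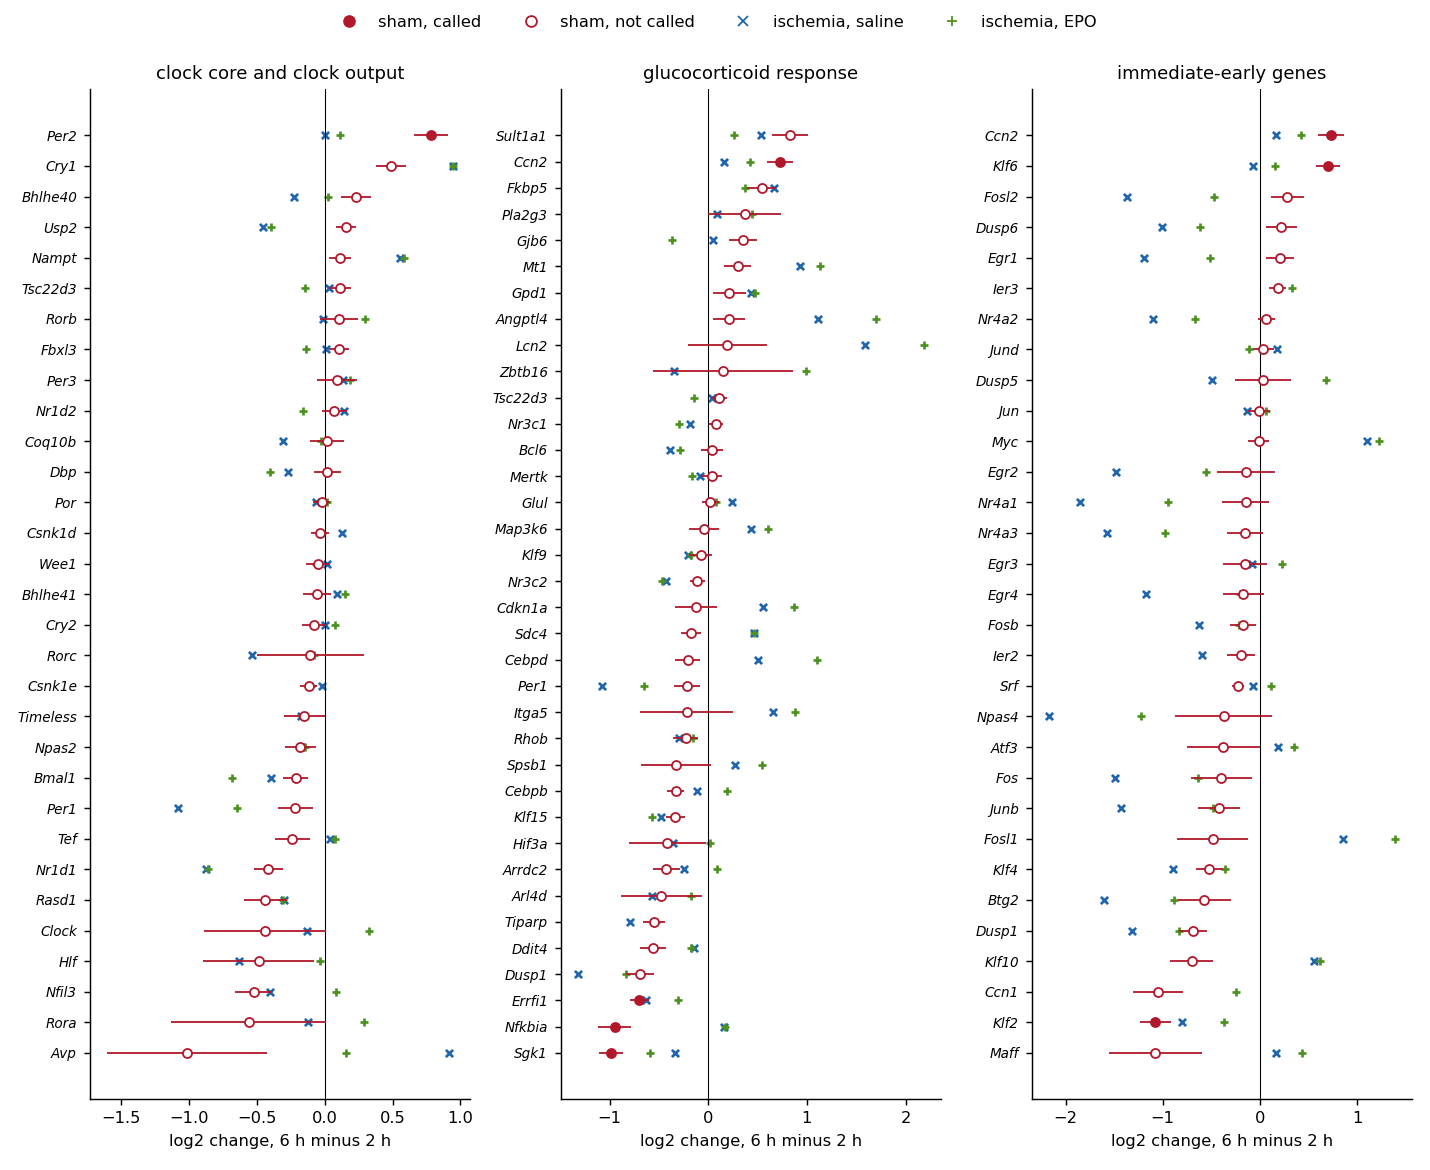
Log2 change, 6 h minus 2 h (x axis), of the tested members of the clock lists (left), the glucocorticoid response list (middle) and the immediate-early list (right), ordered by the change in sham cortex. Circles are sham cortex with the standard error, filled where called, crosses ischemia with saline and plus signs ischemia with EPO. Filled circles are few, with Per2 at the top of the clock panel and Sgk1 at the bottom of the middle panel, and the crosses of Nr4a1, Egr1 and Fos lie well to the left of their circles.

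Inflammatory, metabolic and stress lists held almost no calls. As 0.63% of all genes were called, lists of this size would hold few at that share. At an unadjusted p under 0.05 in limma there were 2598 of all 28634 probes. None of 22 cytokines and chemokines passed (5 at an unadjusted p under 0.05). The nearest was Ccl2, a chemokine that recruits monocytes, at 1.72 ± 0.35 (adjusted p = 0.0543), with -2.33, -3.34 and -3.18 at 6 h against -3.78, -5.26 and -4.98 at 2 h. The groups did not overlap, but only 1 of the 3 arrays at 2 h was well above background. Il1b changed by 0.06. Of 19 NF-kB and adhesion genes only Nfkbia passed. The lists of heat shock and cold-inducible genes (20), the unfolded protein response (19), interferon response (24), hypoxia targets (25), antioxidants (15), fasting (15), the EPO receptor and JAK-STAT genes (18), the extracellular matrix (24), the cell cycle (19), oxidative phosphorylation (16) and ribosomal proteins (21) had 0 called in limma, 0 to 8 per list at an unadjusted p under 0.05, and medians between -0.14 and 0.10. Of 20 cholesterol synthesis genes 0 passed (5 unadjusted), although 18 had a lower mean at 6 h and the median was -0.17. The median over all genes was -0.04, and 47.2% to 80.4% of all probes were lower at 6 h, depending on their level. The closest to the threshold were Dhcr7, which catalyses the last step of the pathway, at -0.30 ± 0.06 (adjusted p = 0.0633), and Mvd, an enzyme of the mevalonate branch, at -0.45 ± 0.10 (adjusted p = 0.0832). Epor gave -0.60 ± 0.34, and Epo and Hspa1b were not tested.

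Of the cell type markers, in 16 lists, 1 gene passed, Sox9 among 11 astrocyte markers, while Gfap gave 0.11. Of all genes 0.63% were called. The 14 endothelial markers had a median change of 0.21 with 0 called (6 unadjusted), and a summed linear level, in units of the array's 75th percentile signal, of 19.5 to 24.1 at 6 h against 17.0 to 19.6 at 2 h. Within that list the directions split, as Kdr gave 0.57 ± 0.15 and Sox18 -0.57 ± 0.14. Choroid plexus markers had a median change of -1.46, with 8 of 9 lower at 6 h and 0 called (1 unadjusted), and varied widely within both groups. Ttr, the carrier of thyroid hormone and retinol, named after its values were seen, stood at -2.83, 0.61 and 4.11 at 6 h, against 3.99, 0.80 and 5.28 at 2 h, and the summed level of the 9 markers ran from 1.89 to 23.7 at 6 h, against 4.23 to 49.4 at 2 h. Avp on the clock output list varied likewise, with -0.59, -0.55 and 0.72 at 6 h against 1.29, -0.39 and 1.72 at 2 h. Lymphocyte markers had a median change of -1.30, with 7 of 7 lower at 6 h, 0 called and 0 at an unadjusted p under 0.05. Their summed level was 0.445 to 0.921 at 6 h, against 0.985 to 1.79 at 2 h, so the groups did not overlap. Only 3 of the 7 were well above background on all 6 arrays. With the spike-in slope as a covariate the lymphocyte median was 0.10. Among all tested probes, 80.4% of those with a mean level below -3 and 72.5% of those from -3 to -2 were lower at 6 h. All 5 red cell markers were lower at 6 h (median -0.27, 0 called, 0 unadjusted), and of 5 neutrophil markers 0 were called and 1 passed unadjusted (median -0.08). The part of these tissue differences in the called changes was not tested.

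The sham change was next set beside the change from 2 h to 6 h after occlusion, which was measured on other arrays. With saline 7.21% of probes and 8.74% of genes passed (4.77% higher, 3.97% lower), and with EPO 11.3% of probes and 13.7% of genes (5.76% higher, 7.97% lower). Of the 135 probes called in sham cortex, 61 passed with the same sign in ischemia with saline (45.2% of the sham calls and 2.96% of the 2064 saline calls) and 11 with the opposite sign. With EPO 71 passed with the same sign (52.6% of the sham calls and 2.19% of 3241) and 12 with the opposite sign. The signs matched in 74.8% of the 135 for saline and 77.0% for EPO, compared with 64.8% and 45.6% of all probes. All comparisons share 1 estimate of each probe's spread, which favours the same probes in each. Among the 83 genes, 38 passed with the same sign in both ischemic groups, 31 rises and 7 falls. Lonrf3 was one, with 1.02 in sham cortex, 1.05 with saline and 0.84 with EPO, and Rpe65 another, with 0.96, 1.02 and 0.79. Slpi changed by 1.82 in sham cortex, 3.34 with saline and 2.63 with EPO, and the differences did not pass.

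The difference of the changes was tested directly. It passed for 400 probes between sham cortex and ischemia with saline (1.4%) and for 713 between sham cortex and ischemia with EPO (2.49%). Over genes the shares were 1.89% for saline (0.683% positive, 1.21% negative) and 3.25% for EPO (1.4% positive, 1.85% negative), and both differences use the same sham arrays. Of the 83 genes called in sham cortex, 18 passed in both, 12 of them with ischemic changes of the opposite sign in both groups. The genes named in the rest of this paragraph beyond those above were chosen after their values were seen. Kcnv1 rose by 0.50 in sham cortex but changed by -0.80 with saline and -0.57 with EPO, differences of 1.30 ± 0.09 (adjusted p = 2.8e-05) and 1.07 ± 0.09 (adjusted p = 0.00011). Nes, an intermediate filament of progenitors and reactive astrocytes, stood at -0.13, -0.24 and -0.35 at 6 h, against 0.14, 0.16 and 0.26 at 2 h in sham cortex, a change of -0.43, compared with 0.56 with saline and 0.81 with EPO. Vegfc, a lymphatic and vascular growth factor, rose by 0.62 in sham cortex and changed by -0.34 and -0.33 in the ischemic groups. Nfkbia changed by -0.95 in sham cortex, 0.16 with saline and 0.17 with EPO, and Hhex and Tnfrsf11b rose more in sham cortex than in either. Lgals3, the lectin galectin-3, Pla1a and Marchf3, a ubiquitin ligase, rose in all 3 settings and less in sham cortex: Lgals3 by 0.59, against 1.69 with saline and 1.62 with EPO. The rise of Per2 was larger than the change of 0.00 with saline by 0.78 ± 0.18 (adjusted p = 0.0498), and the difference from the 0.12 with EPO, 0.67 ± 0.18, did not pass (adjusted p = 0.067).

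By list, 2 of 31 immediate-early genes rose in sham cortex and 1 fell, while with saline 1 rose and 18 fell and with EPO 3 rose and 7 fell. The difference from saline passed in the positive direction for Nr4a2, Egr1, Fosl2, Dusp6, Nr4a3, Nr4a1 and Klf6, and in the negative for Myc. Egr1, which encodes an activity-induced zinc-finger factor, changed by 0.20 in sham cortex against -1.19 with saline (difference 1.39, adjusted p = 0.00395). Inflammatory lists went the other way. A gene could enter the test through an ischemic group alone, so its level in sham cortex may lie near background. Well above background on all 6 sham arrays were 12 of the 22 cytokines and chemokines, 16 of the 19 NF-kB and adhesion genes and 21 of the 24 matrix genes. Sele and Ccl20, whose differences passed, were not. Of 22 cytokines and chemokines 0 passed in sham cortex, compared with 12 higher and 1 lower with saline and 11 higher and 1 lower with EPO, and 3 differences from saline and 6 from EPO passed, all negative. Of 19 NF-kB and adhesion genes 10 rose with saline and 11 with EPO, against 1 that fell in sham cortex, and 6 and 8 differences passed, all negative. Of 24 extracellular matrix genes 0 passed in sham cortex, compared with 11 higher with saline and 16 with EPO, and 7 and 8 differences passed, all negative. The median difference from saline was 0.52 for the immediate-early genes, -0.73 for the cytokines, -0.90 for the NF-kB genes and -0.78 for the matrix genes. Of the 19 core clock genes, 1 rose and 3 fell in each ischemic group, and the difference from saline passed for Per1 and Per2. Per1 changed by -0.22 in sham cortex against -1.08 with saline, a difference of 0.87 ± 0.19 (adjusted p = 0.038), and its difference from EPO was 0.43 (adjusted p = 0.262).

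**Figure D5:**
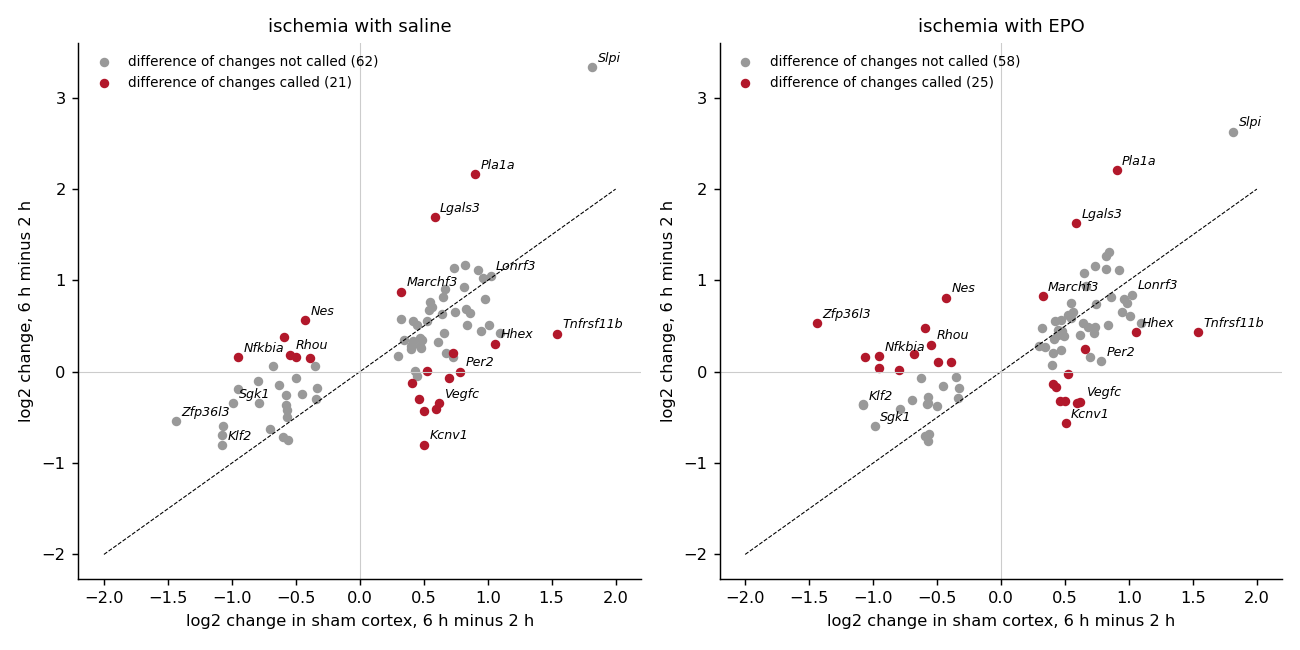
Log2 change in sham cortex (x axis) against the change in ischemia with saline (left y axis) or with EPO (right y axis), 6 h minus 2 h, for the 83 genes called in sham cortex. Red points are genes whose difference of changes passed (21 for saline, 25 for EPO), grey points are the others, and the dashed line marks equal change. Grey points such as Lonrf3 lie near the line, while Kcnv1, Vegfc and Nes lie across 0 from their sham change.

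The spike-in slope class was not balanced between times, as 1 of 3 arrays at 6 h and 0 of 3 at 2 h exceeded 0.9 in sham cortex, compared with 2 and 1 with saline and 1 and 1 with EPO. With the class as a block in the fit, 129 probes passed in sham cortex, 107 of them among the 135. Per2 then gave 0.72 (adjusted p = 0.00872), Sgk1 -0.99 (adjusted p = 0.00442) and Hhex 1.07 (adjusted p = 0.00134), while Lrg1 and Apold1 no longer passed (adjusted p = 0.0567 and 0.0548).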

How the data were processed

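Each array was deposited as scanner output of Agilent Feature Extraction 9.1.1.1, per the file headers, with a processed Cy3 intensity per spot that is background-subtracted. The authors also deposited a table of log2 values, whose scale the labels do not state; each matched the mean log2 processed signal of its probe without scaling. From the processed intensity, log2 values minus the 75th percentile of each array were computed, control spots and outlier flags were left out, and spots of a probe were averaged. A probe was tested where all 3 arrays of any of the 6 groups were well above background. Precision is limited by 3 arrays per group. limma 3.58.1 (R 4.3.3, with statmod 1.5.0) fitted all 18 arrays with 12 residual degrees of freedom and Benjamini-Hochberg adjustment over 28634 probes, and the procedure was tested on simulated data. A gene was read from its probe of highest mean signal. Symbols came from RefSeq tables, and 19760 of 41012 probes had none.

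Genes were named by rule: the 12 largest rises and 12 largest falls among genes called with groups that do not overlap, the 5 largest of each sign in the differences of changes, the called or nearest members of each list, and the members of the clock and glucocorticoid lists. The members and lists were chosen with earlier results of these data known. Alternatives covered background correction, scaling, the filter, the samples and blocks in the fit, the threshold and each array left out.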

Additional observations from a re-analysis of the deposited data

Results flagged for a closer look

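The change between 6 h and 2 h in sham cortex differed from that in ischemia with saline for 400 probes, and from that in ischemia with EPO for 713, by the test of the difference itself. The 2 sets share the sham arrays. None of the genes named here passed in sham cortex itself.

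Abra, which encodes an actin-binding protein, had the largest positive differences, 2.25 against saline and 2.82 against EPO, from a change of 0.38 in sham cortex, -1.87 with saline and -2.44 with EPO. Neurod6, a transcription factor of cortical excitatory neurons, differed by 1.44 and 1.59. Against saline, the early-response genes Nr4a1, Fosl2 and Nr4a3 differed by 1.71, 1.65 and 1.42. Against EPO, B3galt2, a galactosyltransferase, Npy1r, a neuropeptide Y receptor, and Tmem273 differed by 1.76, 1.66 and 1.22.

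Sele, the endothelial adhesion molecule E-selectin, had differences of -5.30 against saline and -4.62 against EPO, and was well above background on 1 of the 3 sham arrays at 6 h and 0 of 3 at 2 h. The other negative differences against saline were -4.66 for Serpina3n, an acute-phase protease inhibitor, -3.59 for Ccl12, -2.71 for Atp8b1 and -2.62 for Trib3, a stress-induced pseudokinase. Those against EPO were -5.82 for Serpinb2, -4.67 for Zscan25, -4.55 for Ccl20 and -4.07 for Spp1, which encodes osteopontin. Ccl12, Atp8b1 and Ccl20 were well above background on 0 of 6 sham arrays, so their sham change carries no measured level. Serpina3n, Serpinb2 and Zscan25 were not well above background on all 6 sham arrays. Over the alternative fits their sham changes ran from 0.75 to 2.39, from -1.74 to 0.12 and from -3.20 to -1.90.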

How the results depend on the processing

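The 135 sham calls, 400 differences from saline and 713 from EPO depended on the fit. In that order, the authors' unscaled values gave 25, 230 and 262 probes, no filter on dim probes 60, 225 and 333, 28, 126 and 176 passed at a threshold of 0.01, 292, 741 and 1484 at 0.1, and array quality weights, whose estimation did not converge, gave 937, 1170 and 7913. With the 6 arrays of steep spike-in slope left out the counts were 0, 0 and 99 (in limma, 2062 and 1820 at an unadjusted p under 0.05 for the first and second). Only the 6 sham arrays in the fit gave 0 sham calls (2344 unadjusted), and only the 12 sham and EPO arrays 241 differences. Slide as a fixed block gave 1 sham call and 216 differences from EPO, slide as a random block 219 sham calls and 730 differences from saline, and spike-in slope as a covariate 87 sham calls. Leaving out 1 array at a time gave 40 to 59 sham calls: 59, 47 and 59 without sham 6 h arrays 1 to 3, and 52, 56 and 40 without sham 2 h arrays 1 to 3. The same gave 203 to 321 differences from saline, lowest without saline 6 h array 3, and 327 to 1025 from EPO, lowest without sham 6 h array 3 and highest without EPO 6 h array 3. The 2 settings added after the data were seen left out both arrays numbered 1, with 18 sham calls, and both sham arrays of slide 4, with 17. The cause of these shifts was not tested, apart from the thresholds and the fewer arrays, which act by construction.

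With the replicate number as a block, 0 sham probes passed in limma (2054 unadjusted), with 11 differences from saline and 94 from EPO. Deviations of same-numbered sham arrays correlated at -0.44, -0.05 and -0.34, and those of differently numbered ones at -0.51 to 0.48. As the first principal component carried 78.6% of the variance of these arrays, the correlations cannot tell whether the numbers pair them. Among the named genes, 327 gene and setting combinations lost the sham call, 94 gained one and 4069 kept their side of the threshold, with no change of sign in a called value. Probes near background limit what can be read at the dim end.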
